A study of Gallus gallus with 21 samples.

Results

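The axon guidance ligands and receptors of the chicken retina were taken as the genes whose symbol begins with SEMA, PLXN, EPHA, EPHB, EFNA, EFNB, ROBO, UNC5, or with SLIT, NTN or NRP followed by a digit. The rule found 58 of the 18631 genes in the deposited table. It reads symbols and no measured value, but it was chosen with earlier results of these data known. They were 18 semaphorins, 9 plexins and neuropilins, 13 Eph receptors, 4 ephrins, 6 Slit and Robo genes, 7 netrins and UNC5 receptors, and UNC50. UNC50 shares only its first letters with the netrin receptors. It is the counterpart of a worm gene needed for the transport of acetylcholine receptors to the cell surface, and it is described apart from the others.

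Guidance ligands are secreted or membrane-bound proteins that attract or repel growing axons and dendrites. Semaphorins act on plexins, with neuropilins as co-receptors of the secreted class, while ephrins act on Eph receptors, Slits on Robo receptors, and netrins on UNC5 receptors among others. In the chick, graded Eph receptors on ganglion cell axons and graded ephrins in the tectum set up the map of the retina in the brain, and in the mouse retina semaphorins and plexins help to place neurites in the layers of the inner plexiform layer.

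The samples were retinas of wild-type White Leghorn chickens. Birds received lenses of -10 dioptres at 3 days of age and wore them for 1, 3 or 6 days, with 7 libraries for each duration. Such a lens focuses the image behind the retina, and the growing eye lengthens toward it, which is called lens-induced myopia. All 3 groups wore the lens, so age and lens wear rose together and cannot be told apart. The labels do not state whether libraries of the same duration stem from different birds, and a p-value here measures the spread between libraries, which may be partly technical.

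The deposited values were CPM (reads of a gene scaled to the reads of its library), and the smallest step between values put the libraries at an estimated 30.8 to 49.3 M reads. Markers of the neural retina were present in all libraries: the summed level of 4 rod markers ranged from 285 to 535 CPM, that of 10 ganglion cell markers from 154 to 219 CPM and that of 5 Muller glia markers from 872 to 1193 CPM. Among the ganglion cell markers, POU4F2 and POU4F3 reached at most 0.339 and 0.242 CPM. The 6 pigment epithelium markers summed to 1.39 to 8.75 CPM, the 5 microglia markers to 3.15 to 6.64 CPM and the 2 muscle markers in the table to at most 0.184 CPM. The 3 oligodendrocyte markers in the table summed to 92.1 to 202 CPM and the 4 endothelial markers to 41.7 to 66.6 CPM. Rod markers summed to 343 to 460, 285 to 427 and 402 to 535 CPM on days 1, 3 and 6, and their part in the changes of guidance genes was not tested. In whole retina, fewer cells of a type and less RNA per cell cannot be told apart. Transcripts of HINTW, a gene of the female W chromosome, ranged from 101 to 147 CPM in 10 libraries, and the other 11 held 0.0243 to 0.598 CPM. The 10 comprised 4 libraries of day 1, 1 of day 3 and 5 of day 6, and results on the 4 guidance genes that moved with W transcripts are given below with and without them as a covariate.

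Most guidance genes were measured, and which of them were called between days of lens wear depended on the scaling. Of the 58 genes, 46 had a mean of at least 1 CPM and were tested with limma on log2(CPM + 1), with p-values adjusted by the Benjamini-Hochberg method over all 11072 genes tested and called under 0.05. The 12 genes below that level were EFNA2, EPHA1, EPHA2, EPHB3, NTN3, ROBO4, SEMA3BL, SEMA3DL, SEMA3F, SEMA3G, SEMA4B and SLIT1. SEMA4B averaged 0.677 CPM and SLIT1 0.860 CPM, and the means of the other 10 were at most 0.252 CPM, that of SEMA3G. The F test over the 3 days called 9 of the 46 (19.6%), against 29.7% of all genes tested. Between days 6 and 3, 7 of the 46 (15.2%) were called, against 22.8% of all genes, with 5 higher and 2 lower on day 6, against 19.4% and 3.44% of all genes. Between days 6 and 1, 7 (15.2%) were called, against 24.3% of all genes, with 4 higher and 3 lower, against 19.8% and 4.46%. Between days 3 and 1, limma called 0 of the 46, against 3.31% of all genes (1.67% higher and 1.63% lower), and 9 (19.6%) reached an unadjusted p under 0.05, against 17.97% of all genes. Against the mean of days 1 and 6, day 3 was lower in 2 genes, PLXNB1 and SEMA3C, and higher in 0, against 7.06% and 1.38% of all genes (8.44% in all). Among the markers of retinal cells, the same contrast called ARR3 of cones (means of 210.2, 143 and 184 CPM on days 1, 3 and 6), CALB1 of horizontal cells (45.5, 31.9 and 43.2 CPM) and POU4F1 of ganglion cells (11.98, 9.87 and 11.99 CPM) as lower on day 3, and GNGT2 of cones as higher. Other markers of these cells differed in direction. ONECUT2 of horizontal cells was highest on day 3 (48.4, 53.9 and 41.8 CPM) and ONECUT1 lowest (1.85, 1.19 and 1.75 CPM). SNCG of ganglion cells was highest on day 3 (44.8, 49.96 and 49.1 CPM) and NEFM lowest (28.6, 22.7 and 26.6 CPM). The part of the markers in the low values of guidance genes on day 3 was not tested. Leaving out each library in turn gave 4 to 9 calls between days 6 and 3, 3 to 8 between days 6 and 1, and 4 to 10 in the F test. Over all genes tested the same step gave 1902 to 2918, 2217 to 2854 and 2755 to 3599 calls.

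The direction of these counts depended on the scaling. The median log2 difference over the 46 genes was 0.10 between days 6 and 3 and 0.04 between days 6 and 1, beside 0.08 and 0.08 over all genes tested. With libraries rescaled by median-of-ratios size factors, the medians over all genes fell to 0.00 in both contrasts and those over the 46 to 0.01 and -0.03. The guidance genes called were then 1 higher and 5 lower between days 6 and 3, against 8.31% and 8.39% of all genes (16.7% in all), and 1 higher and 6 lower between days 6 and 1, against 8.14% and 9.41% (17.5% in all). PLXNB1 was the gene higher in the first contrast and PLXNB2 in the second. In the F test that scaling ended the calls of EPHB6, PLXNA4, SEMA3C and UNC50. It added EFNB2, NTN4L, ROBO2, SEMA3E, SEMA4D, SEMA5A and SLIT2. The F test calls among the 46 thus rose, while those over all genes fell from 3284 to 2582. The size factors ran from 0.949 to 1.006 on day 1, 0.947 to 1.032 on day 3 and 1.01 to 1.077 on day 6. Those of days 1 and 6 did not overlap, and the cause was not tested.

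**Figure D1:**
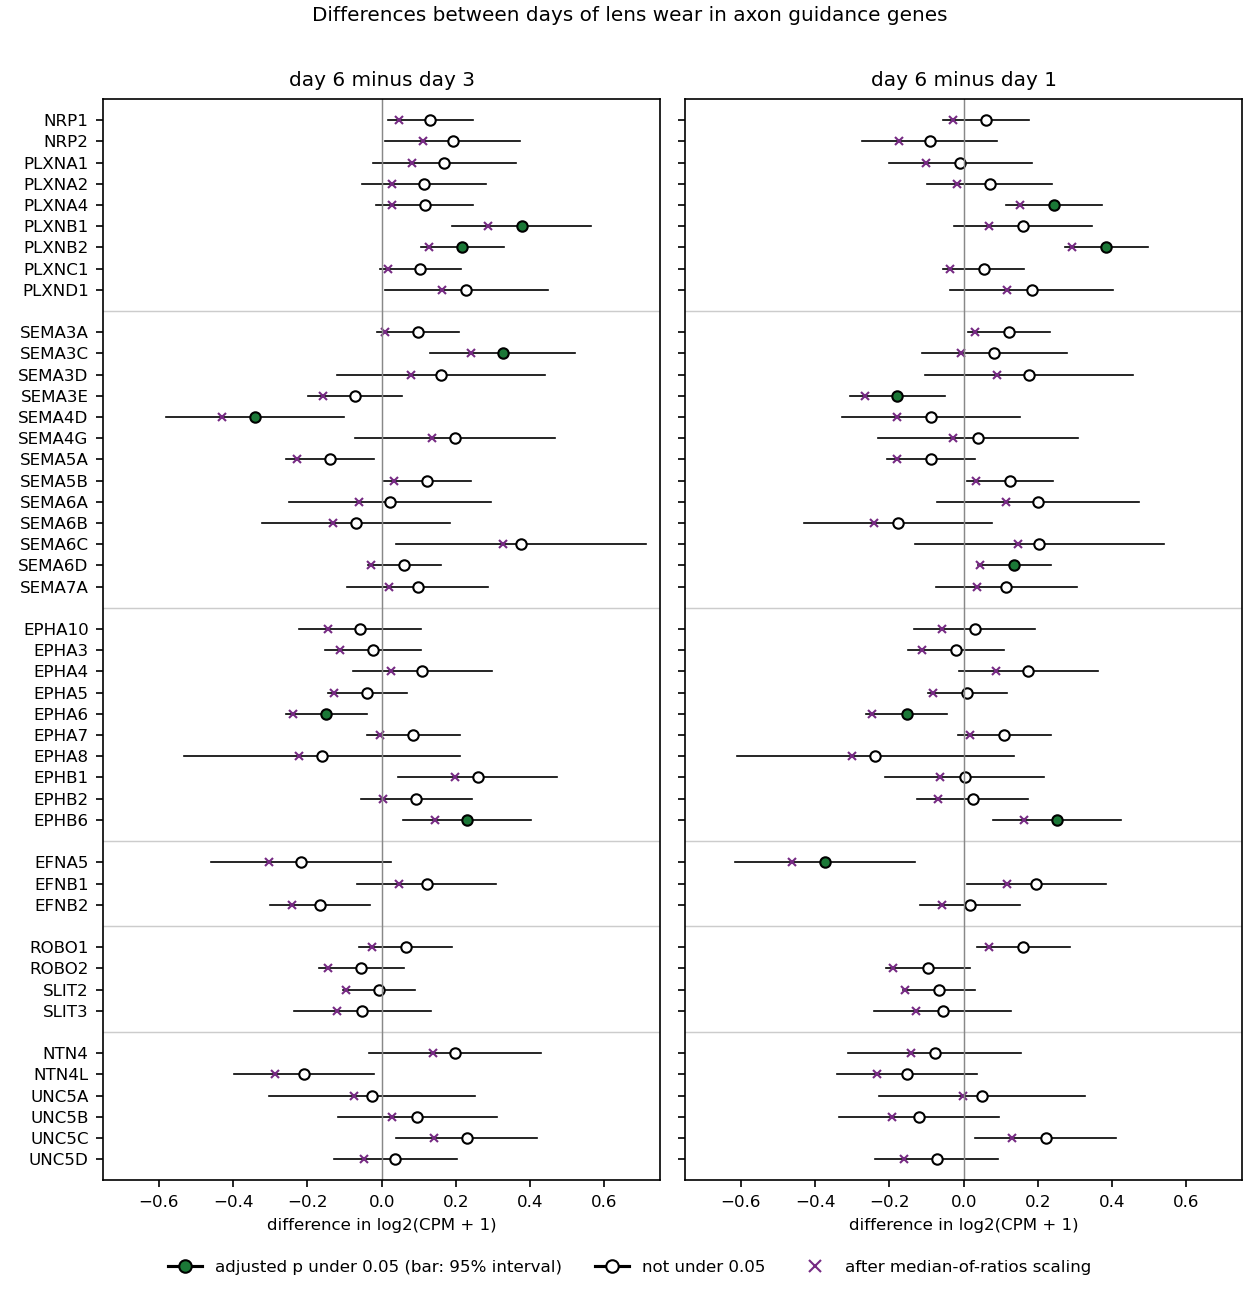
Difference in log2(CPM + 1) between day 6 and day 3 (left) and between day 6 and day 1 (right) for the 45 tested guidance genes other than UNC50, grouped by family, with 95% confidence intervals. Filled points passed the adjusted p of 0.05 and crosses give the difference after median-of-ratios scaling, which lies to the left of the circle in most genes; PLXNB2 on the right, at 0.38, and PLXNB1 on the left, at 0.38, stand apart from 0 under both scalings.

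Among the receptors of semaphorins, plexins of the B class changed most clearly. PLXNB2 (chromosome 1, 20647433 to 20898268, build GRCg6a) encodes a receptor of class 4 semaphorins. Its lowest, median and highest values were 40.0, 43.6 and 45.7 CPM on day 1, 44.4, 47.9 and 55.3 CPM on day 3, and 50.9, 57.8 and 63.0 CPM on day 6. The median was higher at each later day, and all libraries of day 6 lay above all libraries of day 1, while day 3 overlapped both. The mean rose from 43.2 ± 1.92 CPM (SD, n = 7) on day 1 to 56.8 ± 4.18 CPM on day 6, a log2 difference of 0.38 ± 0.05 (SE), or 1.31-fold on the CPM + 1 scale (adjusted p = 5.78e-05). Between days 3 and 6 it rose by 0.22 ± 0.05 (adjusted p = 0.00651). The difference between days 6 and 1 was 0.29 (adjusted p = 0.000536) after median-of-ratios scaling, and 0.36 to 0.41 with any library left out. That between days 6 and 3 was 0.13 (adjusted p = 0.0838) after the same scaling.

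PLXNB1 (chromosome 12, 11683788 to 11742201) encodes the receptor through which SEMA4D collapses growth cones. Its lowest, median and highest values were 32.7, 35.7 and 50.7 CPM on day 1, 28.0, 31.7 and 38.2 CPM on day 3, and 38.2, 40.7 and 46.8 CPM on day 6. Day 3 was the low point, and on the deposited scale every library of day 6 stood above every library of day 3. The highest of day 3 and the lowest of day 6 nearly touched at 38.16 and 38.19 CPM. Their size factors were 1.001 and 1.01, and the separation does not hold after median-of-ratios scaling. From day 3 to day 6 PLXNB1 rose by 0.38 ± 0.09 on the log2 scale, or 1.30-fold (adjusted p = 0.00551), and by 0.29 (adjusted p = 0.0210) after median-of-ratios scaling. Day 3 was lower than the mean of days 1 and 6 by 0.30 ± 0.08 (adjusted p = 0.0220), a call lost without replicate 3 or 5 of day 3 (adjusted p up to 0.0609). Between days 3 and 1 the difference was -0.22 ± 0.09 (adjusted p = 0.209). Day 1 held 1 library far above the other 6, at 50.7 CPM, and without it the difference between days 6 and 1 passed the test (0.23, adjusted p = 0.0356) where with it the difference did not (0.16, adjusted p = 0.197).

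PLXNA4 (chromosome 1, 2886368 to 3242748), a receptor that binds class 6 semaphorins directly and class 3 semaphorins with neuropilins, ranged over 17.8, 21.8 and 23.4 CPM on day 1, 21.1, 22.8 and 26.3 CPM on day 3, and 22.3, 25.8 and 26.8 CPM on day 6 (lowest, median and highest). The days overlapped, with all 7 libraries of day 6 above the day 1 mean. The rise from day 1 to day 6 was 0.24 ± 0.06 (adjusted p = 0.00823), and after median-of-ratios scaling the difference was 0.15 (adjusted p = 0.0661). The other plexins tested were PLXNA1, PLXNA2, PLXNC1 and PLXND1, and limma called 0 of them in any pairwise contrast. PLXND1 alone was under an unadjusted p of 0.05, between days 6 and 3, against 37.49% of all genes. PLXNA1, a receptor subunit shared by class 3 and class 6 semaphorins, had medians of 25.4, 23.8 and 24.8 CPM on days 1, 3 and 6, and PLXNC1, the receptor of SEMA7A, ranged from 20.1 to 26.2 CPM over all libraries. PLXND1, the receptor of SEMA3E that is known from blood vessels, stood at 1.66 to 3.73 CPM over all libraries. The 4 endothelial markers summed to 41.7 to 66.6 CPM. Nearly all of that sum came from KDR (25.05 to 48.9 CPM) and PECAM1 (12.3 to 23.8 CPM). TEK reached at most 0.923 CPM and CDH5 at most 0.338 CPM.

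The neuropilins bind class 3 semaphorins and vascular endothelial growth factors. NRP2 (chromosome 7, 12663364 to 12744503) was at 6.98, 8.81 and 9.34 CPM on day 1, 5.47, 6.78 and 8.68 CPM on day 3, and 6.38, 7.75 and 9.72 CPM on day 6. The days overlapped, with the median lowest on day 3. The F test called it (adjusted p = 0.0437) and no pairwise contrast did, with -0.28 ± 0.09 between days 3 and 1 (adjusted p = 0.0795). Its F test call was lost with 15 of the 21 libraries left out in turn. The call was also lost without the filter at 1 CPM (adjusted p = 0.0635) and with part of the day 1 libraries alone, as given below. Other F test calls were lost with 17 (EPHA6), 16 (EFNA5), 12 (EPHB6), 8 (UNC50) and 3 (SEMA3C) left out. Those of PLXNA4, PLXNB1 and PLXNB2 held throughout. NRP1 was at 10.6 to 15.0 CPM over all libraries and passed no test, with a log2 difference of 0.13 between days 6 and 3 (adjusted p = 0.0886).

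**Figure D2:**
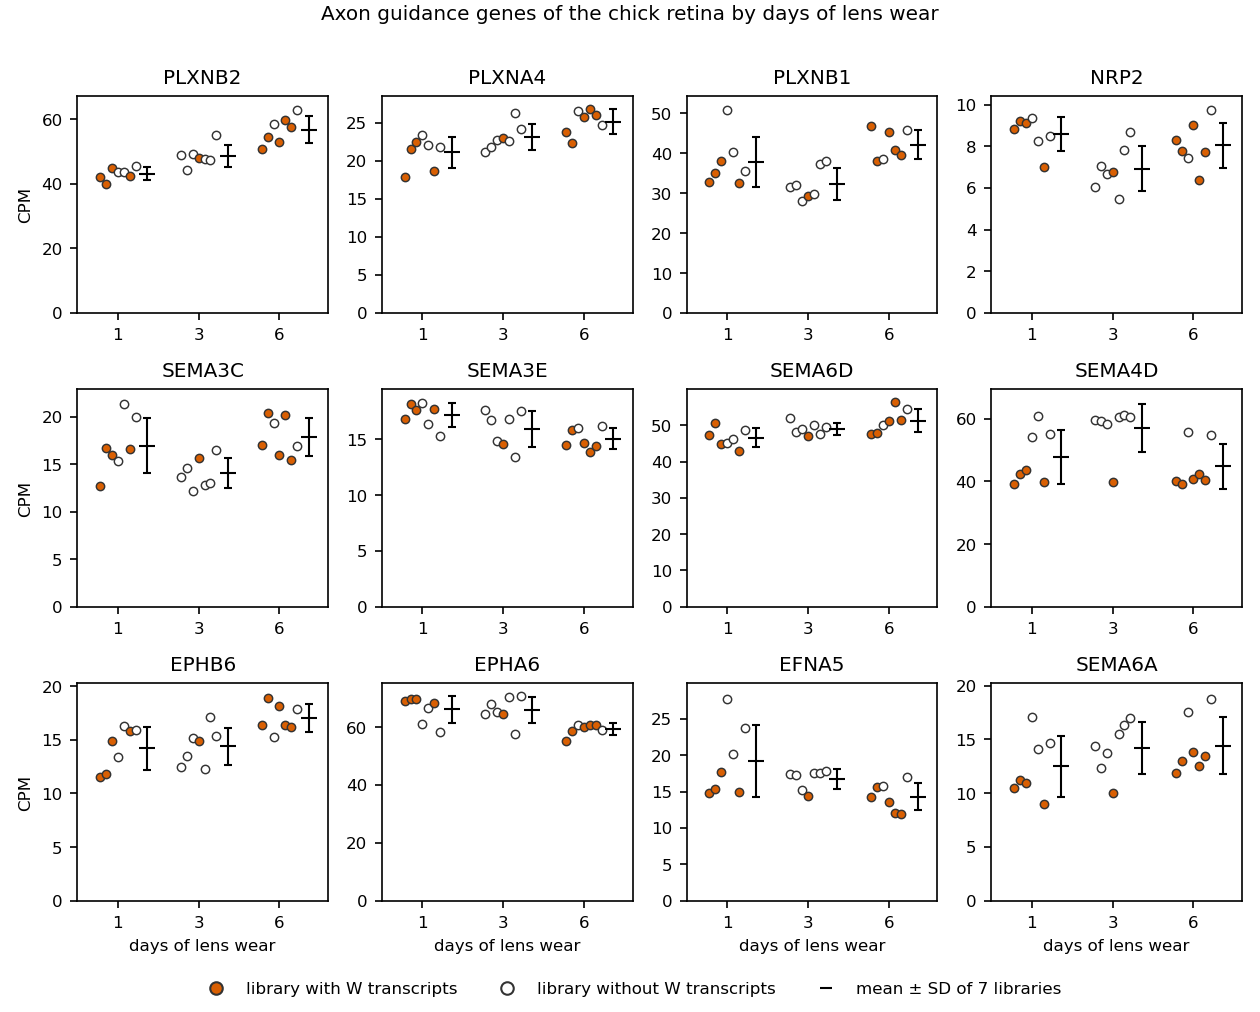
Level in CPM (vertical axis, from 0) of 12 guidance genes against days of lens wear, with a point for each library, filled where W transcripts were present, and the mean ± SD of 7 libraries at the right of each day. PLXNB2 has its highest mean on day 6, PLXNB1, NRP2 and SEMA3C have their lowest mean on day 3, and in SEMA4D the filled and open points lie in separate bands, at 39.2 to 43.5 and 54.1 to 61.2 CPM.

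Of the 18 semaphorin genes, 13 were tested, and 4 were called in a pairwise contrast: SEMA3C and SEMA4D between days 6 and 3, and SEMA3E and SEMA6D between days 6 and 1. Of all genes tested, 22.8% and 24.3% were called in these contrasts. SEMA3C (chromosome 1, 11192352 to 11314334), a secreted ligand of neuropilin complexes, was at 12.7, 16.7 and 21.3 CPM on day 1, 12.2, 13.7 and 16.5 CPM on day 3, and 15.5, 17.0 and 20.4 CPM on day 6 (lowest, median and highest). Day 3 was low, and its 2 neighbouring days overlapped with it and with each other. From day 3 to day 6 SEMA3C rose by 0.33 ± 0.09 (adjusted p = 0.0170), a call that held with each library left out. After median-of-ratios scaling the difference was 0.24 (adjusted p = 0.103). Day 3 was lower than the mean of days 1 and 6 by 0.28 ± 0.08 (adjusted p = 0.0345), and after the same scaling the difference was -0.24 (adjusted p = 0.0920). That call was also lost without replicate 1, 2, 3, 5 or 6 of day 3, with adjusted p up to 0.0865.

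SEMA3E (chromosome 1, 9659759 to 9790409) encodes a secreted ligand that binds plexin D1 without a neuropilin. Its values were 15.3, 17.6 and 18.3 CPM on day 1, 13.5, 16.7 and 17.7 CPM on day 3, and 13.9, 14.7 and 16.2 CPM on day 6. All libraries of day 6 lay below the day 1 mean, but the groups overlapped. It fell by 0.18 ± 0.06 from day 1 to day 6 (adjusted p = 0.0377) and by 0.27 after median-of-ratios scaling (adjusted p = 0.00624). The unscaled call was lost with 9 of the 21 libraries left out in turn, with adjusted p up to 0.0787.

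SEMA3C and SEMA3E stand close to SEMA3D and SEMA3A on chromosome 1, in the order SEMA3D, SEMA3A, SEMA3E and SEMA3C between positions 8841266 and 11314334. The 4 neighbours did not follow a single course: SEMA3A, whose protein repels axons through neuropilin-1, gave 0.10 between days 6 and 3 and 0.12 between days 6 and 1 (adjusted p = 0.0972 for the latter). SEMA3D gave 0.16 and 0.18 and passed neither contrast without the W-linked covariate described below.

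SEMA6D (chromosome 10, 9831502 to 10369023), a transmembrane ligand of plexin A1, was at 43.0 to 50.8 CPM on day 1, 47.1 to 52.1 CPM on day 3 and 47.6 to 56.4 CPM on day 6, with medians of 46.4, 49.1 and 51.3 CPM. The days overlapped. It rose by 0.14 ± 0.05 from day 1 to day 6 (adjusted p = 0.0397), a call lost with 9 of the 21 libraries left out and after median-of-ratios scaling (0.04, adjusted p = 0.540). SEMA5A (chromosome 2, 78594765 to 78914686), a transmembrane ligand that in the mouse retina keeps neurites within the inner plexiform layer, was at 49.4, 56.5 and 60.6 CPM on day 1, 52.7, 58.9 and 64.1 CPM on day 3, and 47.6, 53.4 and 55.8 CPM on day 6. Day 6 had the lowest median and overlapped with both other days. The difference between days 6 and 3 was -0.14 ± 0.06 (adjusted p = 0.0779), and after median-of-ratios scaling it was -0.23 (adjusted p = 0.00741). SEMA5B, its closest relative, differed the other way, at 0.12 ± 0.06 (adjusted p = 0.117), and whether the pair differed from each other was not tested. Among the semaphorins that passed no test without the W-linked covariate, SEMA7A, a lipid-anchored ligand, ranged from 3.98 to 6.83 CPM over all libraries, SEMA4G from 1.52 to 3.97 CPM, SEMA6B from 1.60 to 3.86 CPM and SEMA6C from 0.460 to 2.45 CPM. With that covariate the F test called SEMA6C (adjusted p = 0.0483).

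SEMA4D, SEMA6A and EFNA5 were the members on the Z chromosome, of which cocks carry a pair and hens a single copy, and their levels moved with W transcripts. With day in the model, limma called 4 of the 46 guidance genes as different between libraries with and without W transcripts, against 5.38% of all genes tested, and all 4 were lower in libraries with them. They were the 3 Z-linked genes and SEMA3D on chromosome 1. All 4 calls held with each library left out. The sets of libraries with and without W transcripts were defined from the data, since the labels give no sex.

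SEMA4D (Z chromosome, 43597867 to 43698367), the ligand of plexin B1, was at 39.2 to 43.5 CPM in the 10 libraries with W transcripts and at 54.1 to 61.2 CPM in the 11 without. The ranges did not overlap, and the difference was -0.47 ± 0.04 on the log2 scale (adjusted p = 7.33e-09). By day its lowest, median and highest values were 39.2, 43.5 and 60.8 CPM on day 1, 39.8, 59.5 and 61.2 CPM on day 3, and 39.3, 40.9 and 55.7 CPM on day 6. The single low library of day 3 was its only library with W transcripts. Without the covariate SEMA4D fell by 0.34 ± 0.12 from day 3 to day 6 (adjusted p = 0.0371), and that call was lost with 11 of the 21 libraries left out. With W transcripts as a covariate the difference was -0.05 (adjusted p = 0.512), and with the covariate and median-of-ratios scaling together, an alternative added after the values were seen, it fell by 0.14 (adjusted p = 0.0355).

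SEMA6A (Z chromosome, 72764865 to 72879245) encodes a transmembrane ligand of plexin A4 that in the mouse retina helps to sort neurites into sublayers. It was at 11.6 ± 1.58 CPM (SD, n = 10) with W transcripts and 15.6 ± 1.92 CPM (n = 11) without, a difference of -0.50 ± 0.06 (adjusted p = 3.48e-06). Taken by day alone its log2 difference between days 6 and 1 was 0.20 ± 0.13 (adjusted p = 0.269). Within the libraries with W transcripts it was at 9.01 to 11.2 CPM in 4 of day 1 and 11.9 to 13.8 CPM in 5 of day 6. Those without held 14.1 to 17.1 CPM in 3 of day 1 and 17.5 to 18.8 CPM in 2 of day 6. In both sets days 1 and 6 did not overlap on the deposited scale. In the set without, the facing libraries, at 17.05 and 17.51 CPM, had size factors of 0.9947 and 1.031. That gap does not hold after median-of-ratios scaling. With the covariate it rose by 0.29 from day 1 to day 6 (adjusted p = 0.00407) and by 0.33 from day 3 to day 6 (adjusted p = 0.00506), where without the covariate the latter difference was 0.02 (adjusted p = 0.914). Its receptor gene PLXNA4 rose by 0.26 from day 1 to day 6 in the same fit (adjusted p = 0.00488). With the covariate and median-of-ratios scaling together, SEMA6A rose by 0.20 from day 1 to day 6 (adjusted p = 0.0193). From day 3 to day 6 it then rose by 0.24 (adjusted p = 0.0168).

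EFNA5 (Z chromosome, 48131935 to 48339031) encodes a membrane-anchored ephrin that repels temporal axons in the chick tectum. Its lowest, median and highest values were 14.8, 17.6 and 27.7 CPM on day 1, 14.4, 17.4 and 17.8 CPM on day 3, and 11.96, 14.3 and 17.0 CPM on day 6. The days overlapped, and on day 1 the 3 libraries without W transcripts, at 20.1 to 27.7 CPM, stood above the 4 with them, at 14.8 to 17.6 CPM. EFNA5 was lower by 0.39 ± 0.07 in libraries with W transcripts (adjusted p = 0.000732). From day 1 to day 6 it fell by 0.37 ± 0.12 (adjusted p = 0.0239), and by 0.30 with the covariate (adjusted p = 0.00748). It is the largest fall among the 46 genes in that contrast without the covariate. The call was lost without replicate 7 of day 1 and without replicates 5 or 6 of day 6, with adjusted p up to 0.0537. With the covariate EFNA5 also fell by 0.33 from day 1 to day 3 (adjusted p = 0.0293), the only guidance gene called in that contrast in that fit, against 3.82% of all genes. Without the covariate that difference was -0.16 ± 0.12 (adjusted p = 0.510). Day 3 held 1 library with W transcripts, at 14.4 CPM, and 6 without them, at 15.3 to 17.8 CPM. Whether the fall from day 1 to day 3 differed with W transcripts was not tested.

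SEMA3D was at 5.10 to 9.56 CPM in the 10 libraries with W transcripts and 5.77 to 11.6 CPM in the 11 without. The ranges overlapped, and the difference was -0.41 ± 0.09 (adjusted p = 0.00630). With the covariate SEMA3D rose by 0.41 from day 3 to day 6 (adjusted p = 0.0153), where without it the difference was 0.16 (adjusted p = 0.410). Day 3 held 1 library with W transcripts, at 5.10 CPM, and the lowest without them was at 5.77 CPM. The F test called SEMA3D with the covariate (adjusted p = 0.025), but not with the covariate and median-of-ratios scaling together. Whether the change from day 1 to day 6 itself differed with W transcripts was tested as an interaction added after the values were seen. Limma called 0 of the 46 genes and 0.0% of all genes. An unadjusted p under 0.05 was reached by 2 of the 46, against 387 of the 11072 genes tested.

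Of the 13 Eph receptor genes 10 were tested, and EPHA6 and EPHB6 were called, in opposite directions. Both were called between days 6 and 3 and between days 6 and 1, against 22.8% and 24.3% of all genes. EPHA6 (chromosome 1, 92140821 to 92634620), a receptor of A-class ephrins, was at 58.3, 68.5 and 69.7 CPM on day 1, 57.6, 65.2 and 70.8 CPM on day 3, and 55.02, 60.1 and 60.9 CPM on day 6. Day 6 was lower and tighter than the earlier days, which each held at least 1 library within its range. It fell by 0.15 ± 0.05 both from day 1 (adjusted p = 0.0385) and from day 3 (adjusted p = 0.0458), and after median-of-ratios scaling by 0.25 (adjusted p = 0.00509) and 0.24 (adjusted p = 0.00741). The unscaled calls were lost with 10 and 14 of the 21 libraries left out, with adjusted p up to 0.0788 and 0.0977.

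EPHB6 (chromosome 1, 78677706 to 78751372) encodes a receptor whose kinase domain is inactive. It was at 11.5, 14.9 and 16.3 CPM on day 1, 12.3, 14.9 and 17.1 CPM on day 3, and 15.3, 16.4 and 18.9 CPM on day 6, with overlap between all days. It rose by 0.25 ± 0.08 from day 1 to day 6 (adjusted p = 0.0315) and by 0.23 ± 0.08 from day 3 to day 6 (adjusted p = 0.0493). After median-of-ratios scaling these differences were 0.16 (adjusted p = 0.195) and 0.14 (adjusted p = 0.251), and the calls were lost with 6 and 13 of the 21 libraries left out.

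EPHB2 and EPHA5 had the highest mean CPM among the Eph receptors, which does not rank transcripts since CPM takes no account of gene length. EPHB2, a receptor graded along the dorsal to ventral axis of the chick retina, was at 64.5, 78.2 and 90.5 CPM on day 1, 60.5, 71.9 and 78.7 CPM on day 3, and 72.4, 75.8 and 82.3 CPM on day 6. EPHA5, a receptor of A-class ephrins, was at 64.7, 68.0 and 74.3 CPM on day 1, 67.2, 70.5 and 80.9 CPM on day 3, and 60.9, 70.9 and 73.5 CPM on day 6. In both genes all days overlapped, with differences between days 6 and 1 of 0.02 (95% confidence interval -0.12 to 0.17) in EPHB2 and 0.01 (-0.10 to 0.12) in EPHA5. EPHA3, which is graded in chick ganglion cells, had an interval of -0.15 to 0.11 in the same contrast. On the deposited scale a change beyond those limits lies outside it. Median-of-ratios scaling lowered the median over all genes in this contrast from 0.08 to 0.00. The 3 intervals thus hold for the deposited scale only. The other receptors tested, none of which was called in a pairwise contrast, were EPHA4 at 11.1 to 18.6 CPM over all libraries, EPHA7 at 25.9 to 37.5 CPM, EPHA10 at 10.9 to 15.9 CPM, EPHB1 at 1.27 to 3.03 CPM and EPHA8, which is described below. The F test called EPHB1 with the W-linked covariate (adjusted p = 0.0285), where without it the adjusted p was 0.0803.

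Of the 2 transmembrane ephrins tested, EFNB1 was at 3.53, 4.63 and 5.02 CPM on day 1, 3.49, 5.20 and 5.93 CPM on day 3, and 4.06, 5.44 and 6.40 CPM on day 6. EFNB2 was at 3.43, 4.31 and 5.03 CPM on day 1, 4.33, 5.12 and 5.59 CPM on day 3, and 4.00, 4.28 and 4.70 CPM on day 6. All days overlapped in both, with the EFNB2 median highest on day 3. The difference of EFNB2 between days 6 and 3 was -0.17 ± 0.06 (adjusted p = 0.0658), and after median-of-ratios scaling it was -0.24 (adjusted p = 0.0152).

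Slits repel axons and dendrites through Robo receptors, and in the retina they act on ganglion cell axons. Limma called 0 of the 4 tested Slit and Robo genes in any contrast. Between days 6 and 1, 1 of them, ROBO1, was under an unadjusted p of 0.05, against 37.48% of all genes. SLIT2 was at 56.5, 64.8 and 66.5 CPM on day 1, 56.1, 59.2 and 64.2 CPM on day 3, and 56.9, 60.0 and 61.6 CPM on day 6. ROBO2 was at 83.8, 95.1 and 103 CPM on day 1, 85.7, 90.5 and 98.1 CPM on day 3, and 82.0, 87.1 and 100.4 CPM on day 6. The days overlapped in both, and the differences between days 6 and 1 were -0.07 ± 0.05 for SLIT2 (adjusted p = 0.318) and -0.10 ± 0.05 for ROBO2 (adjusted p = 0.204). After median-of-ratios scaling both passed, at -0.16 (adjusted p = 0.0208) and -0.19 (adjusted p = 0.0158). SLIT3 ranged from 2.38 to 4.25 CPM over all libraries. ROBO1, which neighbours ROBO2 on chromosome 1, gave 0.16 ± 0.06 (adjusted p = 0.0558) in the same contrast.

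Netrin receptors of the UNC5 family mediate repulsion. Among the 6 tested netrin and UNC5 genes limma called 0 in any contrast, with 2, 2 and 1 under an unadjusted p of 0.05 between days 3 and 1, days 6 and 3, and days 6 and 1. Of all genes tested, 17.97%, 37.49% and 37.48% were under that p in these contrasts. With the W-linked covariate the F test called NTN4 (adjusted p = 0.0233), where without it the adjusted p was 0.132. UNC5C was at 14.8, 18.3 and 22.1 CPM on day 1, 15.4, 18.7 and 21.97 CPM on day 3, and 19.3, 21.98 and 25.2 CPM on day 6. Its day 6 libraries all lay above the means of both other days, with overlap, and the difference between days 6 and 3 was 0.23 ± 0.09 (adjusted p = 0.0725). UNC5D was at 9.63, 11.7 and 14.5 CPM on day 1, 10.2, 10.7 and 13.6 CPM on day 3, and 10.5, 11.5 and 13.6 CPM on day 6. The days of UNC5D overlapped throughout, with -0.07 ± 0.08 between days 6 and 1 (adjusted p = 0.535). NTN4L, named for its likeness to the secreted netrin gene NTN4, may share reads with it and is uncertain for that reason. Its difference between days 6 and 3 was -0.21 ± 0.09 (adjusted p = 0.0951), and -0.29 (adjusted p = 0.0266) after median-of-ratios scaling. Over all libraries NTN4L ranged from 3.99 to 7.44 CPM, NTN4 from 1.14 to 2.75 CPM, UNC5A from 0.604 to 2.04 CPM and UNC5B from 2.58 to 5.36 CPM.

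UNC50 (chromosome 1, 133610603 to 133628683) was at 1.29, 1.60 and 2.70 CPM on day 1, 1.12, 1.43 and 1.71 CPM on day 3, and 1.33, 2.13 and 2.44 CPM on day 6. The days overlapped. It rose by 0.33 ± 0.10 from day 3 to day 6 (adjusted p = 0.0162), and the difference was 0.22 (adjusted p = 0.129) with the W-linked covariate and 0.27 (adjusted p = 0.0646) after median-of-ratios scaling. Without UNC50, 6 of 45 genes (13.3%) were called between days 6 and 3, against 22.8% of all genes. The F test called 8 of 45 (17.8%), against 29.7%.

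**Figure D3:**
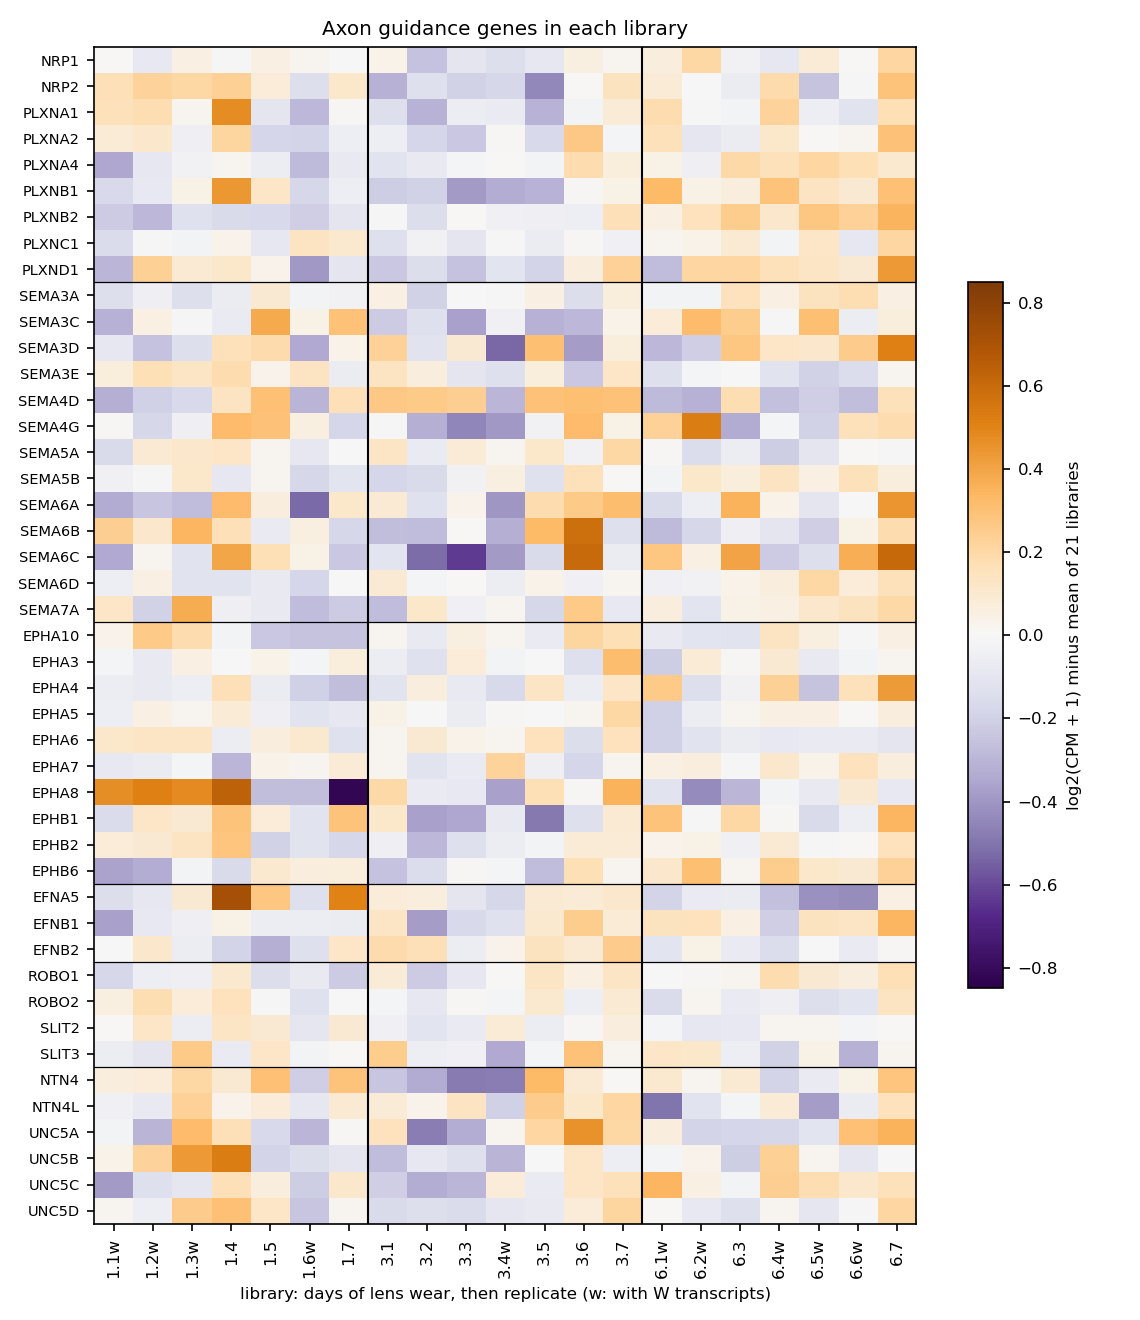
log2(CPM + 1) of each of the 45 tested guidance genes (rows, grouped by family) in each library (columns, by day and replicate, with w for W transcripts), minus the gene's mean over the 21 libraries, from lower (purple) to higher (orange). PLXNB2 turns from purple on day 1 to orange on day 6, SEMA4D and SEMA6A are purple in nearly all columns marked w, and EPHA8 is orange in 4 libraries of day 1 and purple in the other 3.

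The libraries of day 1 were also compared by their sample codes. These codes carry the numbers 1 to 4 and 12 to 14, whose meaning the labels do not give, and the libraries were compared between these sets after their values had been seen. Among the 46 guidance genes limma called 1, EPHA8, against 3.18% of all genes tested. An unadjusted p under 0.05 was reached by 10 of the 46, against 2654 of the 11072 genes tested. After EPHA8 the lowest adjusted p-values were those of EPHA10 (0.0598), EPHB2 (0.0648) and UNC5B (0.0726). EPHB2 averaged 82.36 CPM with numbers 1 to 4 and 66.15 CPM with numbers 12 to 14, and 76.27 CPM on day 6. EPHA8 (chromosome 21, 6116370 to 6157308), an Eph receptor of A-class ephrins, was at 3.58 to 4.14 CPM in the 4 libraries with numbers 1 to 4 and 0.874 to 1.76 CPM in the 3 with numbers 12 to 14. The ranges did not overlap, and the difference was -0.98 ± 0.14 on the log2 scale (adjusted p = 0.0182). The codes of the other days were also cut at their widest gap, and their sets were not tested. That gap ran from 29 to 36 on day 3 but only from 48 to 51 on day 6, so the day 6 sets are less distinct. On day 3 EPHA8 was at 1.57 to 2.79 CPM in the 4 libraries with numbers 25 to 29 and at 2.34 to 3.23 CPM in the 3 with numbers 36 to 39, which overlapped. On day 6 it was at 1.46 to 2.06 CPM in the 3 with numbers 46 to 48 and at 2.13 to 2.54 CPM in the 4 with numbers 51 to 55, which did not overlap and lay in the opposite order to day 1. The facing libraries of day 6, at 2.059 and 2.133 CPM, had size factors of 1.027 and 1.077. Their gap does not hold after median-of-ratios scaling. Over all libraries of day 1 the difference between days 6 and 1 was not called. The F test called EPHA8 with the set of numbers 1 to 4 alone (adjusted p = 0.00103) and with the set of 12 to 14 alone (adjusted p = 0.0487), but not with both (adjusted p = 0.528). The directions were opposite. Days 3 and 6 averaged 2.42 and 2.04 CPM, below the day 1 mean of numbers 1 to 4 (3.77 CPM) and above that of 12 to 14 (1.46 CPM). The F test also called EPHA10 with numbers 12 to 14 alone (adjusted p = 0.0165). With 1 to 4 alone it also called EFNB2, PLXNA1, SEMA4D and UNC5B (adjusted p up to 0.0493). Its calls of EPHA6 and NRP2 were lost with 12 to 14 alone (adjusted p = 0.0798 and 0.202). That of EFNA5 was lost with 1 to 4 alone (adjusted p = 0.0884). Over all genes it gave 3849 calls with 1 to 4 alone and 3280 with 12 to 14 alone. Of the calls between days 6 and 1 above, those of EPHA6 (adjusted p = 0.252), EPHB6 (adjusted p = 0.557) and SEMA3E (adjusted p = 0.342) were not made with numbers 12 to 14 alone. That of EFNA5 was not made with numbers 1 to 4 alone (adjusted p = 0.0602) and that of SEMA6D with neither set alone (adjusted p = 0.108 and 0.0984). Those of PLXNB2 and PLXNA4 were made with either set.

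Genes outside these families that serve the same pathways were counted from lists chosen with earlier results of these data known. Of 38 other guidance ligands and receptors, 35 were in the table and 32 were tested. Between days 6 and 3, 7 of the 32 rose (21.9%) and 2 fell (6.25%), against 19.4% and 3.44% of all genes. Between days 6 and 1, 6 rose (18.8%) and 0 fell, against 19.8% and 4.46%, and between days 3 and 1, 0 rose and 2 fell (6.25%), against 1.67% and 1.63%. Rescaled by median of ratios, the counts were 6 (18.8%) and 2 (6.25%) between days 6 and 3, against 8.31% and 8.39% of all genes, and 2 and 2 between days 6 and 1, against 8.14% and 9.41%. The list's median log2 difference was 0.11 between days 6 and 3, beside 0.08 over all genes tested.

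BOC, a co-receptor of Hedgehog that in the mouse directs ganglion cell axons to the same side of the brain, averaged 3.42 ± 0.608 CPM on day 1, 2.26 ± 0.377 on day 3 and 4.10 ± 0.806 on day 6. It fell by 0.44 ± 0.10 from day 1 to day 3 (adjusted p = 0.0147), where with numbers 12 to 14 alone on day 1 the difference was -0.33 (adjusted p = 0.124), and rose by 0.64 ± 0.10 from day 3 to day 6 (adjusted p = 0.000265). MET, the receptor of hepatocyte growth factor, averaged 10.7 ± 1.91, 10.3 ± 1.21 and 15.1 ± 1.22 CPM and rose by 0.51 ± 0.09 between days 3 and 6 (adjusted p = 0.000737). FLRT3, a transmembrane partner of UNC5 receptors, averaged 20.2 ± 0.629, 18.8 ± 0.731 and 22.7 ± 1.79 CPM and rose by 0.26 ± 0.05 over the same interval (adjusted p = 0.000987). NCAM1, a neural cell adhesion molecule, averaged 248 ± 24.4, 213 ± 14.8 and 253 ± 9.04 CPM and rose by 0.25 ± 0.06 (adjusted p = 0.00579). These changes passed the test after median-of-ratios scaling too.

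Of 59 cytoplasmic transducers of guidance signals, 55 were in the table and 49 were tested. Between days 6 and 3, 12 rose (24.5%) and 0 fell, against 19.4% and 3.44% of all genes, while rescaling by median of ratios gave 8 that rose (16.3%) and 4 that fell (8.16%), against 8.31% and 8.39%. From day 1 to day 6, 6 rose (12.2%) and 2 fell (4.08%), against 19.8% and 4.46% of all genes, with 3 (6.12%) and 7 (14.3%) after that rescaling, against 8.14% and 9.41%. Between days 3 and 1, 2 rose and 2 fell (4.08% each), against 1.67% and 1.63%.

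MICAL2 and MICAL3 belong to a family of actin-oxidising enzymes known as effectors of plexins in the fly. MICAL3 averaged 147 ± 7.05 CPM on day 1, 183 ± 4.34 on day 3 and 193 ± 7.94 on day 6, and rose by 0.31 ± 0.04 from day 1 to day 3 (adjusted p = 0.000134). MICAL2 averaged 15.8 ± 4.67, 28.7 ± 4.48 and 37.1 ± 5.94 CPM and rose by 1.21 ± 0.15 from day 1 to day 6 (adjusted p = 1.57e-05). DPYSL3, a collapsin response mediator protein acting downstream of SEMA3A, averaged 8.34 ± 1.003, 6.45 ± 0.484 and 9.33 ± 0.619 CPM. It fell by 0.32 ± 0.06 from day 1 to day 3 (adjusted p = 0.00640) and rose by 0.47 ± 0.06 from day 3 to day 6 (adjusted p = 0.000138). CHN2, a protein that inactivates the GTPase Rac, averaged 47.9 ± 2.89, 37.97 ± 4.68 and 35.1 ± 3.16 CPM and fell by 0.44 ± 0.07 from day 1 to day 6 (adjusted p = 0.000370). The changes given for these 4 genes held their direction and passed the test after median-of-ratios scaling.

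**Figure D4:**
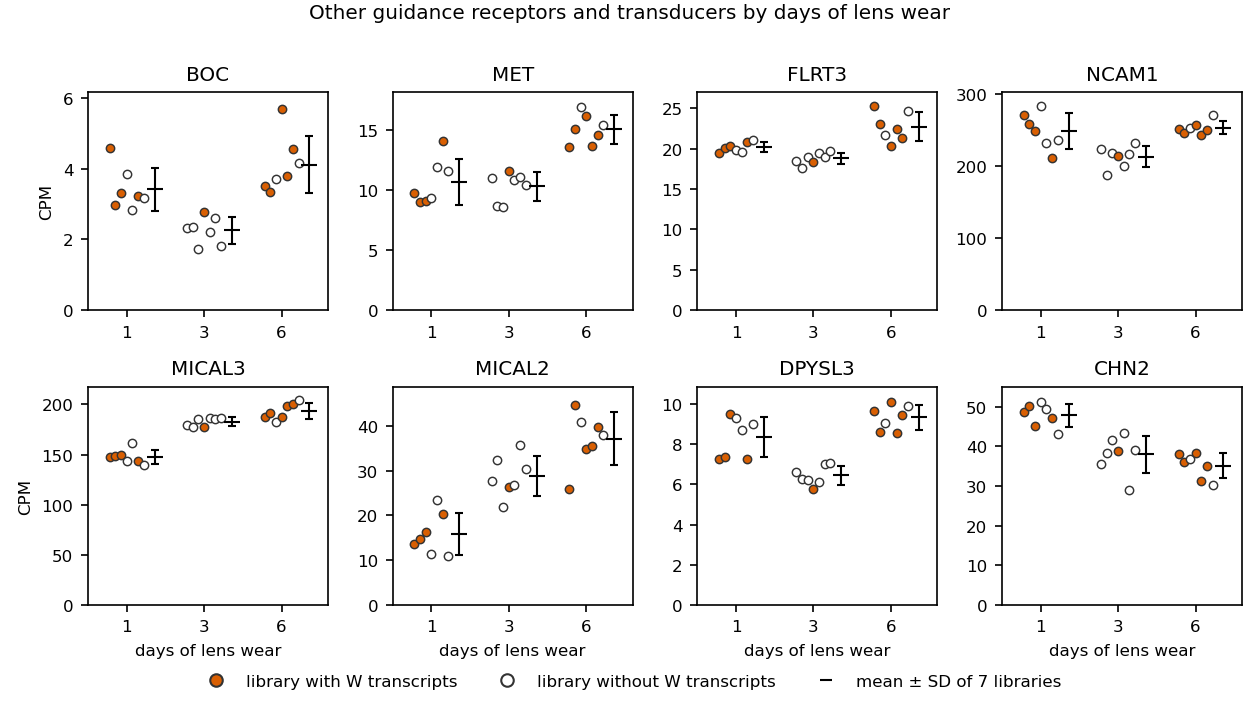
Level in CPM (vertical axis, from 0) of 4 other guidance receptors and adhesion molecules (top) and 4 cytoplasmic transducers (bottom) against days of lens wear, drawn with a point for each library, filled with W transcripts, and the mean ± SD of 7 libraries. BOC and DPYSL3 are lowest on day 3, MET is higher on day 6 at 15.1 CPM on average, MICAL2 and MICAL3 climb from day 1, and CHN2 declines.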

How the data were processed

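The members and gene lists were chosen with earlier results of these data known. Retinal total RNA was depleted of ribosomal RNA and sequenced with a stranded kit, per the labels' protocols. Reads were processed with STAR and Partek on build GRCg6a, per the submitters' processing notes. Their versions and the strand setting of the counting are not given in the sources. The authors deposited CPM with 0.0001 added to every value, which was subtracted. The genes in the table made up 30.4 to 33.3% of that scale, so its denominator held more than them. That share was 30.65 to 31.21% on day 1, 30.35 to 32.22% on day 3 and 31.74 to 33.25% on day 6. Days 1 and 6 did not overlap in it. Dividing low values by the smallest step of their library gave whole numbers, within 0.1, in 94.4 to 95.3% of cases, so no recovery of reads was claimed and no count test was run. A file start position may count from 0 or 1, and chromosome names came from symbols shared with a RefSeq table of another build.

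All 21 libraries entered a limma 3.58.1 fit (R 4.3.3) of log2(CPM + 1), with a mean per day and genes averaging at least 1 CPM. Every member called by the F test or a pairwise contrast was named. Values by day were given for the 12 members with the lowest F test p and the 2 of highest mean CPM per family, and the 4 with the lowest F test p were named from each other list. Libraries above 10 CPM of HINTW were taken as holding W transcripts, and the covariate was log2(HINTW CPM + 1). The procedure was tested on simulated data. Tables and figures were made with Python 3.11.15, numpy 2.4.6, pandas 2.3.3, scipy 1.17.1 and matplotlib 3.10.9.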

Additional observations from a re-analysis of the deposited data

Results flagged for a closer look

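In 9 of 138 groups of 7 libraries, a single library stood farther from its neighbour than Dixon's 95% criterion allows, and chance flags about 1 in 20 groups. SEMA4D in replicate 4 of day 3 stood at 39.8 CPM with the next library at 58.4 CPM, and it was the only library of that day with W transcripts. PLXNB1 in replicate 4 of day 1 stood at 50.7 CPM above 40.3 CPM. EPHA6 in replicate 1 of day 6 stood at 55.02 CPM below 58.5 CPM. Replicate 7 of day 3 was highest in EPHA3, at 41.6 CPM above 35.1 CPM, and in EPHA5, at 80.9 CPM above 72.4 CPM. EFNB1 in replicate 1 of day 1 stood at 3.53 CPM below 4.50 CPM. SEMA6C in replicate 6 of day 3 stood at 2.43 CPM above 1.17 CPM. UNC50 in replicate 6 of day 1 stood at 2.70 CPM above 1.70 CPM. UNC5D in replicate 7 of day 6 stood at 13.55 CPM above 11.7 CPM.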

How the results depend on the processing

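The alternatives were pseudocounts of 0.25 and 0.1, no filter and a filter at 5 CPM, median-of-ratios scaling, listed genes scaled to one total, the W-linked covariate, the code number set as a covariate, either day 1 set alone, the compared days alone, moderation with a trend, and each library left out. Guidance genes called between days 3 and 1 moved from 0 to 1 with the W-linked covariate, 2 with it and median-of-ratios scaling (added after the data were seen), 4 with numbers 1 to 4 alone on day 1 and 2 with numbers 12 to 14 alone. Over all genes tested, calls moved from 366 to 423, 526, 627 and 516 under the same alternatives. Between days 6 and 1, 12 to 14 alone gave 4, where calls over all genes fell from 2691 to 1502. Against the mean of days 1 and 6, 2 became 1 without a filter, 4 with the covariate in both fits and 5 with either day 1 set. Over all genes, 935 became 784 without a filter, 997 and 950 in the covariate fits, and 1098 and 1324 with the day 1 sets. The F test gave 5 without a filter, where calls over all genes moved from 3284 to 3199. With the W-linked covariate it added EPHB1, NTN4, SEMA3D, SEMA6A and SEMA6C and lost UNC50. Calls over all genes in the F test then moved to 3418. Without a filter 18629 genes were tested. No guidance gene difference called in the fit of all 21 libraries changed sign under any of these. EPHA8 was not called in that fit and was outside this check. Leaving out each library gave 0 to 1 between days 3 and 1 (1 without replicate 6 of day 1 or 7 of day 3), 4 to 9 between days 6 and 3 (4 without replicates 2 or 5 of day 3 or 2, 4 or 6 of day 6), 3 to 8 between days 6 and 1 (3 or 4 without replicates 1, 2 or 3 of day 1 or 4, 5, 6 or 7 of day 6), 1 to 4 against the mean of days 1 and 6 (replicates 2, 3, 5 and 7 of day 3 and 7 of day 6 moved it), and 4 to 10 in the F test (4 or 5 without replicates 1, 2 or 5 of day 3 or 1, 2, 4, 5 or 6 of day 6). The other listed guidance genes and transducers gave 5 to 9, 17 to 24, 9 to 17, 8 to 16 and 21 to 30 in the same order, and replicate 7 of day 6 and replicates 2 and 3 of day 3 moved them most. Over all genes tested, leaving out each library gave 262 to 382, 1902 to 2918, 2217 to 2854, 447 to 1084 and 2755 to 3599 calls in that order. The 4 calls with W transcripts stayed at 4. The cause of these moves was not tested. The number of libraries, 7 a day, limits which changes can be called. No paired analysis was possible because the days share no code numbers in the labels. The codes end in R or L, which the labels do not explain.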
